A study of Mus musculus with 27 samples.

Results

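The genes described here encode the nuclear pore and the transport factors that move proteins and RNA through it. They were chosen by name: every protein-coding gene of the count table whose GENCODE vM21 symbol starts with Nup, Thoc, Nxf, Nxt, Kpna, Kpnb or Tnpo and a digit, or with Xpo. The rule found 48 of 37332 genes in the table, of which 21208 were protein-coding, and used no measured value. They fall into 20 nucleoporins, 6 THO subunits, 6 mRNA export receptor genes, 6 exportins, 6 importins alpha and 4 genes of importin beta and the transportins. Of these, 47 passed the low-count filter. The exception was Nxf2, with at most 10 counts in any of 27 libraries. Nup62 was not analysed here, and pore genes with other names, such as Tpr, Pom121 and Ran itself, were followed as a separate list.

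The nuclear pore is a ring-shaped channel through the nuclear envelope. An outer ring (the Nup107 or Y complex) and an inner ring (Nup93, Nup155, Nup188, Nup205 and Nup35) form the scaffold, Nup210 anchors in the membrane, Nup214 and Nup88 face the cytoplasm, and Nup153 and Nup50 face the nucleus. Proteins with a nuclear localisation signal are bound by an importin alpha (Kpna genes) together with importin beta (Kpnb1), transportins (Tnpo1, Tnpo2, Tnpo3) carry other cargo directly, and exportins (Xpo genes) carry cargo out under control of the GTPase Ran. Messenger RNA leaves another way: the THO complex joins it during transcription and passes it to the receptor Nxf1 with its partner Nxt1. The makeup of the pore and the choice of importin alpha are known to change as mouse stem cells turn into neural cells.

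Of mouse cells, 3 types were compared, with no treatment named: embryonic stem cells of the E14 line grown with LIF (mESC), a neural progenitor line kept in EGF and FGF (mNPC), and primary cortical neurons grown for 5 days in culture (mCtx). Each was divided into chromatin-associated, soluble nucleoplasmic and cytoplasmic RNA, and total RNA over 200 nt was sequenced after ribosomal RNA depletion, with 3 libraries labelled as biological replicates in each of 9 groups. The first 2 cell types are 1 line each, so their replicates do not sample other lines, and mCtx is a primary culture that may hold several cell types. Levels below are CPM, counts scaled to the size of the library, given as the libraries numbered 1, 2 and 3. Counts were taken over the whole gene, introns included, and deposited TPM, a measure per transcript length, served as a second measure.

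Promoter sequences are shown first for 5 genes on which the results turn: Kpnb1 and Xpo1, the most abundant members by TPM in stem cell cytoplasm, Kpna2, whose larger fall by counts came between progenitors and neurons, Thoc7, which rose, and Nxf7, which had counts in stem cells alone. Each is the RefSeq window (GRCm38.p6) of 300 bases, 250 before and 50 after an annotated start, written 5′ to 3′ on the gene's strand. Capitals mark matches, on either strand, to the CCAAT box (CCAAT) and to the cell cycle homology element (TTTGAA).
Kpnb1, chr11:97187843-97188142, minus strand: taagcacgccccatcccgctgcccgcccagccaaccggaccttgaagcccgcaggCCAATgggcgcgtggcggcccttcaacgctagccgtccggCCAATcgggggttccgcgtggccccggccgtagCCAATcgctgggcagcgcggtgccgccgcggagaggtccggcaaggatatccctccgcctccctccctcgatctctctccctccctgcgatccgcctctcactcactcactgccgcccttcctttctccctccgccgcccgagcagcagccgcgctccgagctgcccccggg
Xpo1, chr11:23255791-23256090, plus strand: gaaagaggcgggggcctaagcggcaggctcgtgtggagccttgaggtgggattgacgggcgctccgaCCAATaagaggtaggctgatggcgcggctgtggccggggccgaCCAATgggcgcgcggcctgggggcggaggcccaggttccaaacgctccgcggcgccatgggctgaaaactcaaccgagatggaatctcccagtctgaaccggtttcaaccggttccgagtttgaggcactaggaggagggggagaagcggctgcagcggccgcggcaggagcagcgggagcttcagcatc
Kpna2, chr11:106999476-106999775, minus strand: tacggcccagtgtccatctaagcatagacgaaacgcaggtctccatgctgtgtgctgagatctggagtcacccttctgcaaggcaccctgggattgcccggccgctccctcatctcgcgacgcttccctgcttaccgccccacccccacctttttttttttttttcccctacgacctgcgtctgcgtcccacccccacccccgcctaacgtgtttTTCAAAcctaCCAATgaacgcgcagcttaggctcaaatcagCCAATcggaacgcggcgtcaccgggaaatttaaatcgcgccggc
Thoc7, chr14:13961264-13961563, minus strand: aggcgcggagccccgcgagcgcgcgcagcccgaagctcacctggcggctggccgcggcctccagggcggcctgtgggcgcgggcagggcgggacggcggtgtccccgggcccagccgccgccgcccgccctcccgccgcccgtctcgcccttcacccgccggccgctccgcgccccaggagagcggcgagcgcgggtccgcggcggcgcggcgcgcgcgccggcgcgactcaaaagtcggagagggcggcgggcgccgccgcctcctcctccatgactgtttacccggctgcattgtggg
Nxf7, chrX:135598728-135599027, minus strand: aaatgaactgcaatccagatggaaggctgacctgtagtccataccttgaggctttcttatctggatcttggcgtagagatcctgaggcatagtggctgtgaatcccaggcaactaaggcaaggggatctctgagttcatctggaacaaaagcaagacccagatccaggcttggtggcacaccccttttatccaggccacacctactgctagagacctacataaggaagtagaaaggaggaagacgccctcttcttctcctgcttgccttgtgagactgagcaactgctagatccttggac
The Kpnb1 window holds 3 CCAAT boxes, Xpo1 and Kpna2 hold 2 each, and Kpna2 alone of the 5 holds the cell cycle element. Thoc7 has neither but carries 54 CpG dinucleotides, the highest number among the members, while Nxf7 has 2, the lowest.

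A RefSeq window was found for 36 of the 48 members, 33 of them within 200 bases of the annotated gene start. These windows had a median of 27 CpG, against 7 over all 32851 windows of the same length. A CCAAT box was in 52.8% of member windows and 37.4% of all windows, a GC box (GGGCGG) in 69.4% and 35.7%, an ETS motif (CCGGAAG) in 16.7% and 8.86%, and the cell cycle element in 19.4% and 17.9%. A YY1 motif (ATGGCGGC) was in 13.9% and 2.24%, a palindromic NRF1 motif in 8.33% and 0.971%, an E2F motif (TTTCCCGC) in 5.56% and 1.07%, an octamer (ATGCAAAT) in 0% and 1.74%, and a TATA box (TATAAA) in 2.78% and 13.6%. All motifs were searched on both strands, and matches of different motifs may overlap. These are matches of letters and not binding sites.

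The libraries held 11249862 to 19871198 counts. Marker lists went with the labels. The summed cytoplasmic TPM of 8 stem cell genes was 2229 to 2764 in mESC, 48.9 to 68.0 in mNPC and 7.67 to 9.18 in mCtx, with Pou5f1 at 0 in mCtx. That of 8 progenitor genes was 1321 to 1610 in mNPC and 28.8 to 35.0 in mESC, and that of 11 neuron genes 681 to 707 in mCtx and 38.3 to 65.2 in mNPC. The progenitor list still reached 282 to 352 in mCtx, and the mNPC line had 108 to 164 for 5 astrocyte genes and 175 to 229 for 6 oligodendrocyte-lineage genes. Microglial, endothelial and fibroblast lists stayed at or below 6.82 in every cytoplasmic library. The summed TPM of 12 genes of cycling cells, which peak in dividing cells, was 881 to 1268 in mESC, 270 to 371 in mNPC and 74.8 to 83.9 in mCtx, all 12 being detected.

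In cytoplasm, nearly the whole set was lower in both neural cell types than in stem cells. Of the 47 members tested, 42 were lower and 4 higher in mNPC than in mESC (edgeR's quasi-likelihood test with Benjamini-Hochberg adjustment over 18249 genes at 0.05, as in every test below), against a background of 39.4% and 36.5% of all genes. In mCtx against mESC, 42 were lower and 3 higher, against 41.6% and 40.1%. Nxf3 and Nxf7 passed the low-count filter only through stem cells, and their counts were 0 in whole groups. Over the 45 members without them, 40 were lower in each comparison, with a median log2 fold change of -1.81 and -1.77. The median over all genes was -0.07 and -0.05. Both comparisons use the same mESC libraries. By limma on rescaled TPM, 41 and 42 members were lower, against 26.4% and 28.6% of all genes, of which 39 and 41 were the same genes as with counts. Several members were lowest in the mESC libraries numbered 1, and without those libraries 42 and 41 were lower.

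The members' part of all cytoplasmic counts followed the same order. It was 1.11% ± 0.0839 in stem cells, 0.393% ± 0.0309 in progenitors and 0.315% ± 0.00462 in neurons (SD, n = 3). On chromatin it was 0.83% ± 0.0488, 0.457% ± 0.0142 and 0.281% ± 0.00208, and in nucleoplasm 0.616% ± 0.0838, 0.331% ± 0.0294 and 0.337% ± 0.00513. The cycling-cell list fell along with the members, and its part in their fall was not tested. In these bulk samples, fewer cells of a type and less RNA per cell cannot be told apart, and every fold change is a change in share within a fraction, not an amount per cell.

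**Figure D1:**
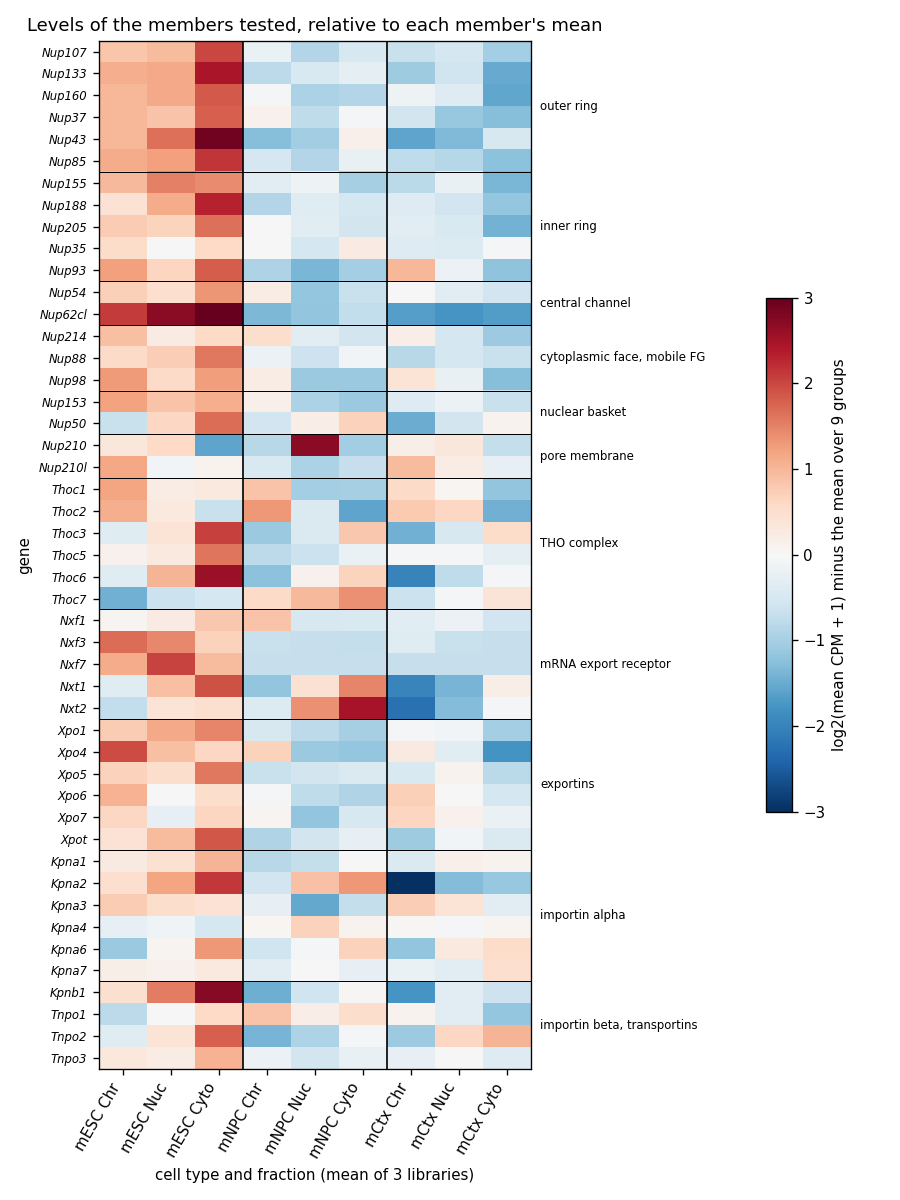
Levels of the 47 members tested (rows, by role) in the 9 groups (columns). Colour is log2 of the mean CPM plus 1 over 3 libraries minus the mean of that gene over the groups, cut off at 3 in either direction; most rows are reddest in the mESC cytoplasm column, and Nup210 is reddest in mNPC nucleoplasm.

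Every scaffold gene that fits the naming rule was lower in neural cytoplasm. Of 10 other nucleoporins on the separate list, 6 were lower and 1 higher in mNPC, and Sec13 (-0.08, SE 0.12) did not pass. All 6 outer ring members were lower in mNPC and in mCtx cytoplasm, with log2 fold changes from -2.79 to -1.89 for the first and from -4.01 to -3.06 for the second. Nup107, which gives the complex its name, stood at 170, 224 and 244 CPM in stem cells, 35.8, 42.7 and 34.3 in progenitors and 23.4, 28.4 and 24.9 in neurons, all in cytoplasm, which is -2.50 (SE 0.16, edgeR adjusted p = 1.85e-13) on the log2 scale in mNPC and -3.06 (SE 0.17) in mCtx. The lowest stem cell library was well above every neural library, and the neural groups did not overlap either. Nup160 had 205, 230 and 221 CPM in stem cells, 33.8, 35.8 and 28.2 in progenitors and 22.1, 17.1 and 20.6 in neurons, with -3.46 (SE 0.12) in mCtx against mESC. Nup133 changed by -4.01 (SE 0.16) and Nup43 by -3.49 (SE 0.16) over the same comparison, but both lie wholly under a gene on the other strand (Gm20388 and Pcmt1), and since the strand setting of the counting is not stated their counts are uncertain. Nup85 changed by -3.41 (SE 0.17) and Nup37 by -3.20 (SE 0.13).

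All 5 inner ring genes were lower as well, from -2.88 to -0.36 in mNPC and from -3.50 to -0.66 in mCtx. Nup93, which holds the inner ring together, had 278, 332 and 375 CPM in stem cell cytoplasm, 44.5, 49 and 40.6 in progenitors and 38.8, 37.6 and 40.5 in neurons. The fall was -2.88 (SE 0.14, edgeR adjusted p = 3.24e-16) in mNPC, and the neural groups each lay far below every stem cell library. Nup188, another large scaffold protein, had 387, 412 and 408 CPM in stem cells, 62.1, 59.9 and 45 in progenitors and 33.8, 39.5 and 33 in neurons, and its change in mCtx against mESC was -3.50 (SE 0.13). Nup35, a small linker, changed least of the ring, from 56.8, 73.9 and 85.3 CPM in mESC to 49.7, 58.8 and 59.8 in mNPC, where the groups overlapped, and 48.5, 41 and 47 in mCtx. Other genes of the table cover 36.3% of Nup35 on its own strand and 25.9% of Nup188, so part of these counts may be theirs.

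Nucleoporins at both faces of the pore and in its channel were lower as well. Nup153, which lies on the nuclear side, stood at 211, 300 and 327 CPM in stem cell cytoplasm, 60.2, 65.3 and 52.6 in progenitors and 82.8, 79.1 and 84.1 in neurons, a change of -2.23 (SE 0.16) in mNPC. Against mNPC it was higher in mCtx by 0.46 (SE 0.15, edgeR adjusted p = 0.00998), with no overlap, but the call was lost without the third mNPC library (0.38) and on rescaled TPM (0.22). Nup50, its neighbour in the basket, had 187, 188 and 200 CPM in stem cells, 94.9, 103 and 90.6 in progenitors and 65, 65.2 and 61.4 in neurons, so each group lay below the one before. Nup98, a mobile FG nucleoporin also known to act on transcription inside the nucleus, had 210, 279 and 267 CPM in stem cells, 50.5, 51.6 and 41.1 in progenitors and 41.8, 44.1 and 40.6 in neurons, with -2.40 (SE 0.13) in mNPC. Its neural groups touched, since the lowest mNPC library was within the mCtx range. Nup214 and Nup88 on the cytoplasmic side had log2 fold changes of -1.18 and -1.68 in mNPC, and of -1.72 and -2.29 in mCtx. In the central channel, Nup54 was at 77.1, 95.8 and 112 CPM in stem cells, 21.3, 24.6 and 22.7 in progenitors and 25.3, 23.9 and 24.6 in neurons. By counts its change from mNPC to mCtx was 0.10 (SE 0.12, edgeR adjusted p = 0.488), which did not pass. On TPM as deposited it was at 3.79, 3.39 and 3.27 in progenitors and 6.42, 6.09 and 5.88 in neurons, so this depends on the measure.

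By counts, Nup210 in the pore membrane went the other way. This gene has been reported as needed for mouse stem cells to become neural cells. Its cytoplasmic level was 23.9, 30.2 and 32.3 CPM in stem cells, 44.4, 38.4 and 44.5 in progenitors and 49.5, 58 and 54.1 in neurons. The stem cell libraries were the lowest, and the groups did not overlap. The change was 0.56 (SE 0.15, edgeR adjusted p = 0.00139) in mNPC and 0.90 (SE 0.15, edgeR adjusted p = 4.1e-06) in mCtx. On rescaled TPM the mNPC change was 0.01 and the mCtx change 0.42, and on TPM as deposited the mNPC change was -0.52, so its direction in progenitors depends on the measure. The deposited TPM of Nup210 in neurons overlapped that in stem cells, with means of 3.06 and 3.05, so no rise was seen on that measure. Its germline paralog Nup210l stayed at 2.21 to 6.42 CPM in every cytoplasmic library.

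**Figure D2:**
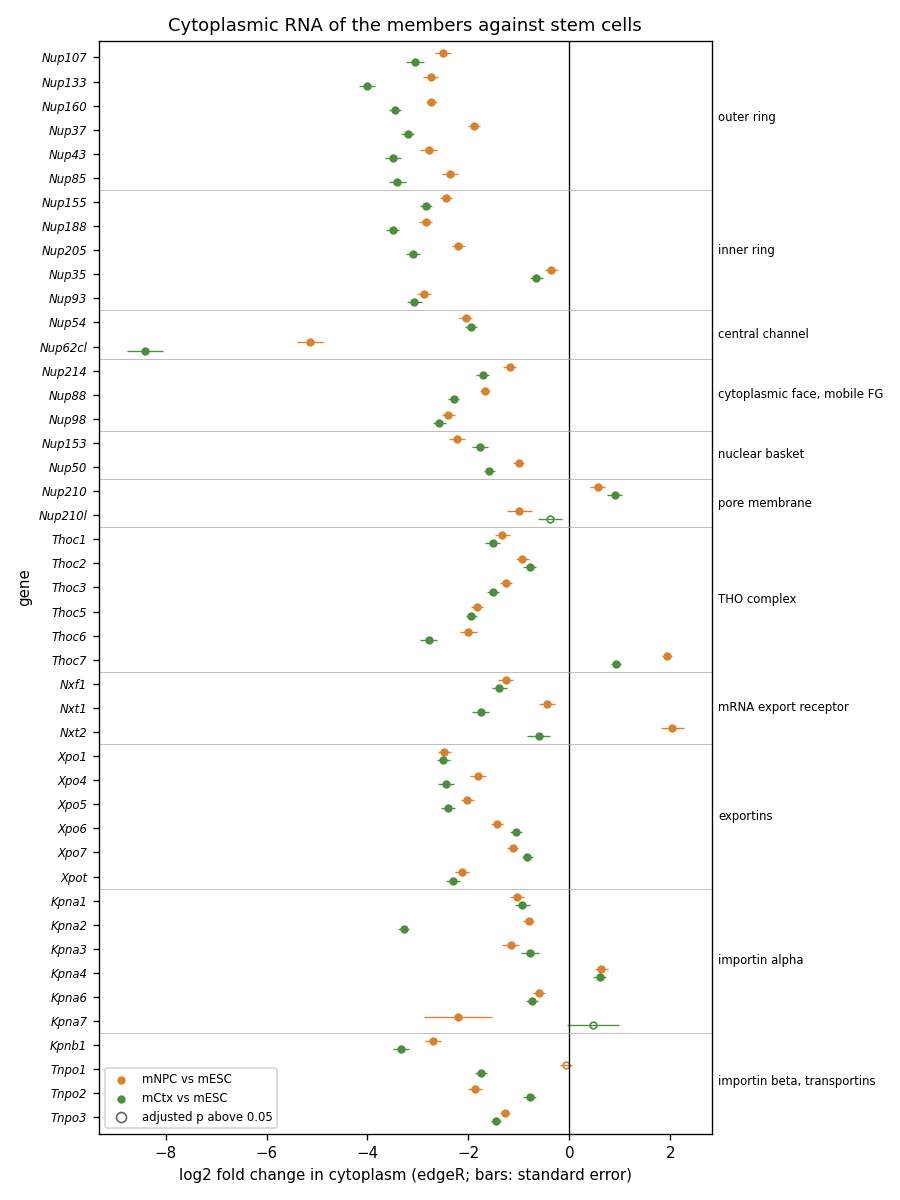
Log2 fold changes in cytoplasm against mESC for 45 members, grouped by role; points are edgeR estimates for mNPC (orange) and mCtx (green), bars are standard errors, and open points did not pass adjusted p 0.05. Nxf3 and Nxf7 are left out because whole groups had 0 counts. Nearly all points lie left of 0, and those right of it include Thoc7, Nxt2 in mNPC, Nup210 and Kpna4.

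Importin beta was the most abundant member in stem cell cytoplasm and fell severalfold. Kpnb1, which docks importin alpha and its cargo at the pore, had 1815, 2311 and 2412 CPM in stem cell cytoplasm, 327, 367 and 313 in progenitors and 218, 212 and 214 in neurons. Every stem cell library was several times above every neural one, and mCtx lay below mNPC without overlap. The change was -2.70 (SE 0.16, edgeR adjusted p = 2.79e-14) in mNPC and -3.34 (SE 0.16, edgeR adjusted p = 3.37e-16) in mCtx. Tnpo3, which imports SR splicing factors, had 294, 293 and 320 CPM in stem cells, 128, 139 and 108 in progenitors and 120, 107 and 105 in neurons, and its neural groups touched.

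Tnpo1 and Tnpo2, close paralogs that import RNA-binding proteins such as hnRNP A1, differed in their course by counts. Tnpo1 was at 556, 510 and 510 CPM in stem cell cytoplasm, 549, 541 and 425 in progenitors and 172, 143 and 152 in neurons. Progenitors overlapped stem cells by counts, with -0.06 (SE 0.12, edgeR adjusted p = 0.676). Neurons lay far below both, by -1.70 (SE 0.12, edgeR adjusted p = 2.09e-12) against mNPC. The deposited TPM of Tnpo1 was lower in every progenitor library than in any stem cell library, and rescaled TPM also called it lower. Whether Tnpo1 kept its level in progenitors thus depends on the measure. Tnpo2 was at 384, 393 and 418 CPM in stem cells, 116, 112 and 100 in progenitors and 223, 242 and 228 in neurons. It was lowest in progenitors and higher again in neurons, by 1.08 (SE 0.12, edgeR adjusted p = 1.81e-08) against mNPC, with no overlap among the 3 groups. An opposite-strand gene covers 21.4% of Tnpo2. Per length, Kpnb1 made up 58.7% ± 3.85 of the summed cytoplasmic TPM of these 4 genes in mESC, Tnpo1 44.9% ± 1.64 in mNPC and Tnpo2 38.7% ± 2.75 in mCtx (SD over 3 libraries), and each of these was the largest share in its cell type.

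The importins alpha, which choose the cargo, were split. Kpna2, the importin alpha of dividing cells and stem cells, had 579, 622 and 601 CPM in stem cell cytoplasm, 316, 368 and 341 in progenitors and 63.2, 63.3 and 59.2 in neurons. The groups stepped down without overlap, and the larger step was between progenitors and neurons, -2.46 (SE 0.11, edgeR adjusted p = 1.1e-16), against -0.81 (SE 0.10) between stem cells and progenitors. The first step was the opposite on rescaled TPM (1.14), and the second the same (-2.35). The table also holds a Kpna2 pseudogene, and how reads that fit both were counted is not stated. Kpna1, an importin alpha with known roles in neurons, had 134, 176 and 189 CPM in stem cells, 80.7, 88.7 and 75.9 in progenitors and 96, 83.3 and 83.6 in neurons, and Kpna6 had 154, 181 and 190 CPM in stem cells, 118, 122 and 104 in progenitors and 104, 109 and 102 in neurons. In both genes the 2 neural groups overlapped and stem cells lay above. Kpna3 had 112, 182 and 172 CPM in stem cells, 70.9, 72.7 and 65.7 in progenitors and 108, 72.1 and 91.2 in neurons, with the first mCtx library nearly at the lowest mESC one. Its close paralog Kpna4 was higher by counts, 157, 179 and 185 CPM in stem cells, 261, 244 and 303 in progenitors and 245, 264 and 278 in neurons, with 0.63 (SE 0.13, edgeR adjusted p = 0.000134) in mNPC, but lower on rescaled TPM (-1.41), so its direction depends on the measure. Kpna7, an oocyte importin alpha, was below 1 CPM in all 27 libraries.

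Per length, Kpna2 made up 36.8% ± 4.76 of the summed cytoplasmic TPM of the importins alpha in stem cells, 74.5% ± 1.58 in progenitors and 32.1% ± 1.18 in neurons, with the SD over 3 libraries. Kpna1 made up 16.7% ± 2.32 in mESC, 6.28% ± 0.474 in mNPC and 17.9% ± 1.27 in mCtx, and Kpna6 15.7% ± 1.14 in mESC, 9.01% ± 0.884 in mNPC and 20.4% ± 1.36 in mCtx. Per length, Kpna2 thus made up most of the sum in progenitors, and each of these shares in neurons lay nearer to that in stem cells, at a lower sum, 42.8 ± 2.12 TPM against 128 ± 25.4. By counts, Kpna2 fell at each step, with a mean of 600 CPM in mESC, 342 in mNPC and 61.9 in mCtx. Kpna4 had 174, 269 and 263 CPM there, so the course of these shares depends on the measure.

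**Figure D3:**
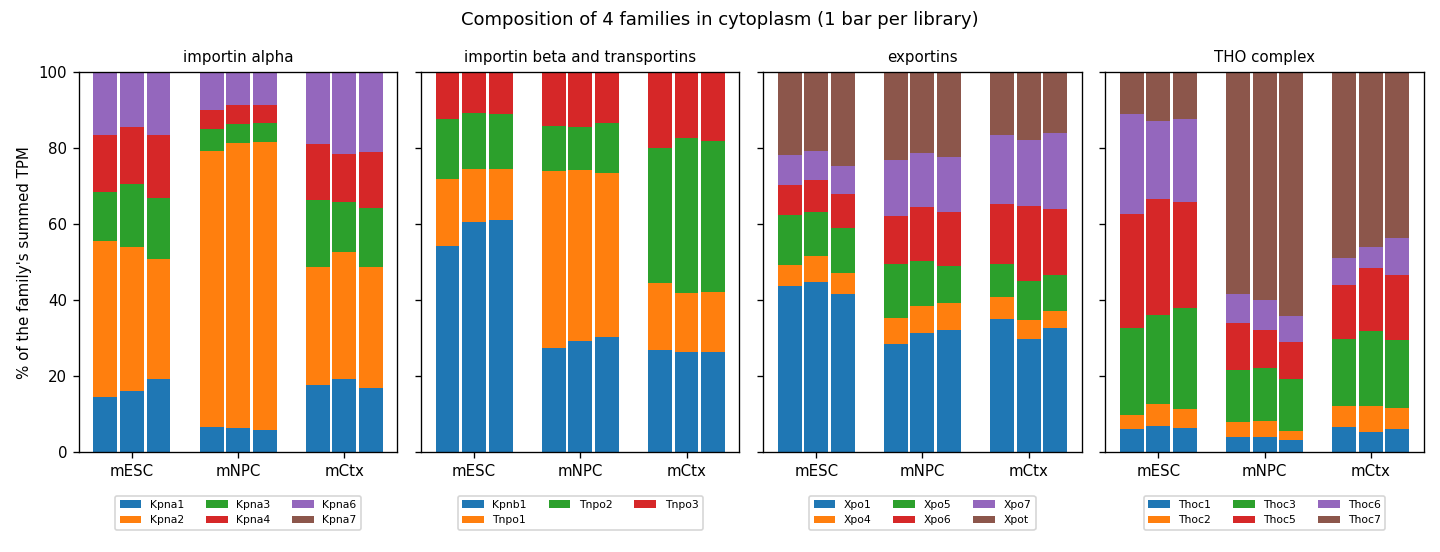
Shares of the summed cytoplasmic TPM of 4 families taken by each gene (vertical axis, percent), 1 bar for each of 3 libraries in mESC, mNPC and mCtx. Kpna2 fills most of the importin alpha bars in mNPC, the largest share of importin beta and transportins passes from Kpnb1 to Tnpo1 and Tnpo2, and Thoc7 takes the largest share of THO in both neural cell types.

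All 6 exportins were lower in both neural cell types, from -2.48 to -1.12 in mNPC and from -2.50 to -0.83 in mCtx. Xpo1 (CRM1), the exportin of proteins with a leucine-rich export signal, had 737, 902 and 885 CPM in stem cell cytoplasm, 142, 168 and 144 in progenitors and 171, 133 and 143 in neurons. The neural groups overlapped, and the change against stem cells was -2.48 (SE 0.13, edgeR adjusted p = 5.15e-15) and -2.50 (SE 0.13, edgeR adjusted p = 2.5e-15). Xpot, which exports tRNA, changed by -2.12 (SE 0.14) and -2.31 (SE 0.14), and Xpo5, which exports microRNA precursors, by -2.02 (SE 0.13) and -2.40 (SE 0.14). Xpo4 was at 99.8, 149 and 129 CPM in stem cells, 36.2, 40 and 31.7 in progenitors and 26.2, 21.9 and 21.1 in neurons, and 27.7% of its length is shared with another gene on its strand. Xpo7 fell least, from 161, 186 and 189 CPM in mESC to 85.4, 87.4 and 73.9 in mNPC and 102, 94.5 and 104 in mCtx, where it was above mNPC in every library, by 0.29 (SE 0.11, edgeR adjusted p = 0.0262). That call was lost without the third mNPC library (0.21), the first mCtx library (0.27) or the third mCtx library (0.26).

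The mRNA export genes were less uniform. In the THO complex 5 of 6 genes were lower in each neural cell type, from -2.00 for Thoc6 to -0.93 for Thoc2 in mNPC. Thoc1 had 51.6, 61.4 and 60.6 CPM in stem cell cytoplasm, 24.4, 25.7 and 18.9 in progenitors and 23.6, 18.1 and 18.9 in neurons, and Thoc2, the largest subunit, 52, 68.9 and 71.7 CPM in stem cells, 37.8, 34.3 and 28.7 in progenitors and 40.4, 33.1 and 37.7 in neurons. In both, stem cells were above and the neural groups overlapped. Thoc7, a small subunit, was the exception, at 21.9, 25.3 and 25.3 CPM in stem cells, 85.2, 94 and 96.8 in progenitors and 50.1, 43.2 and 44.7 in neurons. It was lowest in stem cells and highest in progenitors without any overlap, 1.93 (SE 0.10, edgeR adjusted p = 3.06e-15) in mNPC and 0.93 (SE 0.10, edgeR adjusted p = 3.8e-09) in mCtx, and rescaled TPM gave 1.61 and 0.62. Its share of the summed cytoplasmic TPM of the 6 THO genes was 12.1% ± 0.988 in mESC, 60.9% ± 2.97 in mNPC and 46.2% ± 2.53 in mCtx.

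Nxf1, the general mRNA export receptor, had 94.3, 135 and 157 CPM in stem cell cytoplasm, 52.7, 57.3 and 51.3 in progenitors and 48.3, 50.5 and 48.7 in neurons, with -1.26 (SE 0.15, edgeR adjusted p = 3.41e-08) in mNPC. Stem cells lay above both neural groups, but rescaled TPM gave 0.21 in mNPC, which did not pass. Its partner Nxt1 had 42.9, 46.6 and 52 CPM in stem cells, 29, 37.7 and 37.3 in progenitors and 14.2, 14.8 and 12.8 in neurons and fell mainly between progenitors and neurons, with a log2 fold change of -1.31. Nxt2, a second partner encoded on the X chromosome, had 22.2, 11.9 and 8.9 CPM in stem cells, 56.1, 59.5 and 62.5 in progenitors and 10.7, 8 and 9.63 in neurons. It was high in progenitors only, 2.04 (SE 0.23, edgeR adjusted p = 7.68e-09) against mESC and -2.65 (SE 0.24, edgeR adjusted p = 1.63e-10) in mCtx against mNPC, while stem cells and neurons overlapped.

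Outside stem cells, 3 members were near 0. Nxf7, an X-linked relative of Nxf1, had 68, 41 and 38 counts in mESC chromatin, 110, 69 and 86 in the nucleoplasm and 73, 24 and 15 in the cytoplasm of mESC, and 0 in all 18 neural libraries. Against a floor of 3 counts per library, its level in mESC was at least 13.6-fold higher than in mNPC on chromatin, at least 23.3-fold in nucleoplasm and at least 11.7-fold in cytoplasm, and at least 9.91-fold, 26.0-fold and 10.4-fold higher than in mCtx. These bounds cover counting error only, and those in cytoplasm rest on the first mESC library, without which they are 6.54-fold against mNPC and 5.82-fold against mCtx. Nxf3, also X-linked, had 99, 107 and 48 counts in mESC chromatin and at most 5 in any neural library. Nup62cl, a relative of the channel protein Nup62, had 680, 690 and 710 counts in mESC cytoplasm, 16, 25 and 17 in mNPC and 2, 0 and 3 in mCtx. All 3 lie on the X chromosome, which holds 6 of the 48 members.

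**Figure D4:**
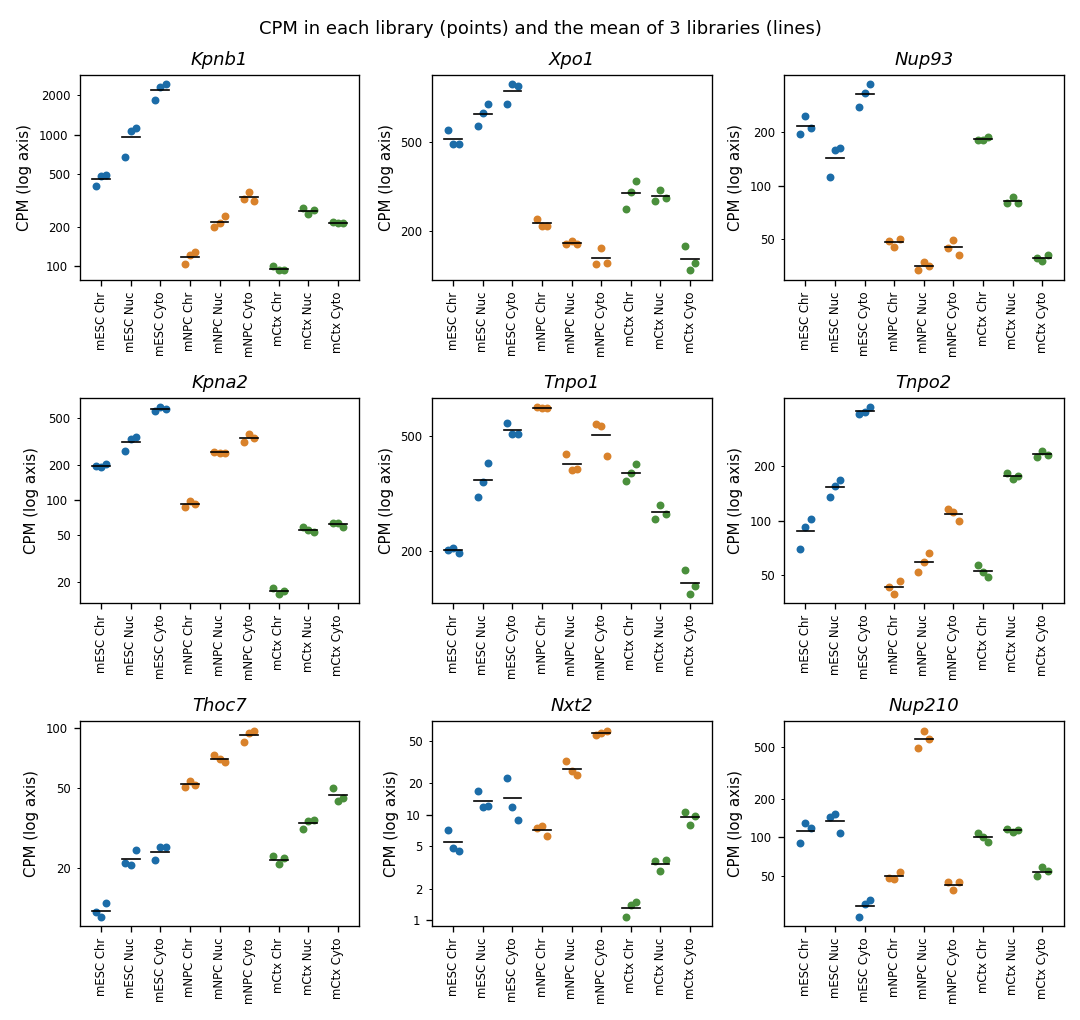
CPM of 9 members in each of the 27 libraries (log axes); points are libraries, lines are means of 3, and colours mark mESC (blue), mNPC (orange) and mCtx (green). Kpnb1 and Xpo1 are highest in mESC throughout, Tnpo1 on chromatin is highest in mNPC, Thoc7 is highest in mNPC in each fraction, and Nup210 stands at 494 to 678 CPM in mNPC nucleoplasm.

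Between the neural cell types the members differed less. In mCtx against mNPC cytoplasm 23 were lower and 7 higher, against a background of 33.4% and 32.6%, with a median of -0.30 over 45 members. On rescaled TPM 22 were lower and 3 higher, against 20.7% and 21.4%, and on TPM as deposited 8 were lower and 3 higher, against 12.6% and 19.4%. Leaving out the third mNPC library made the 7 higher members 3, and leaving out the third mCtx library made them 4. All 6 outer ring members were lower, with log2 fold changes from -1.30 to -0.56, as were 4 of 5 inner ring genes.

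Per length, the order of the members also differed between cell types. In mESC cytoplasm Kpnb1 led with 203 ± 46.7 TPM, above Xpo1 in every library, and Xpo1 (109 ± 20.3), Nup85 (92.9 ± 23.5) and Nup93 (68.3 ± 17.4) followed without clear gaps. In mNPC Kpna2 led with 61.8 ± 9.92 TPM, then Thoc7 (32.5 ± 3.93), Nxf1 (31.0 ± 3.17) and Tnpo1 (24.9 ± 6.86), whose libraries overlapped. In mCtx Nxf1 led with 27.6 ± 2.70 TPM, above Thoc7 (19.1 ± 1.25) and Tnpo2 (19.0 ± 1.33), which did not differ beyond their spread.

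On chromatin, where nascent RNA adds to the counts, the set was again lower in the neural cells. In mNPC against mESC 39 were lower and 5 higher, against 42.7% and 33.8% of all genes (median -1.04 over 45 members and -0.18 over all genes). In mCtx against mESC 37 were lower and 3 higher, against 47.4% and 33.0% (median -0.89 and -0.38). Without Nxf3 and Nxf7, 37 of 45 were lower in mNPC and 35 in mCtx. Of the 42 members lower in mNPC cytoplasm, 38 were also lower on chromatin, that is 90.5% of the 42 and 97.4% of the 39, and in mCtx it was 36, or 85.7% of 42 and 97.3% of 37. Over all genes tested, 80.4% of those lower in mNPC cytoplasm and 83.4% of those lower in mCtx cytoplasm were also lower on chromatin, so sharing the direction was common to most genes. Kpnb1 stood at 410, 485 and 492 CPM on chromatin in stem cells, 105, 122 and 128 in progenitors and 100, 93.1 and 93.4 in neurons, -2.27 (SE 0.16, edgeR adjusted p = 7.1e-13) in mCtx against mESC. Stem cells were far above, and the lower neural groups did not overlap. Kpna2 had 194, 193 and 203 CPM in stem cells, 86.5, 97.9 and 92.1 in progenitors and 17.5, 15.8 and 16.5 in neurons, so each group lay below the one before, with a log2 fold change of -2.47 at the second step.

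Members that kept or raised their chromatin level were few. Tnpo1 had 203, 205 and 198 CPM on chromatin in stem cells, 628, 625 and 627 in progenitors and 349, 373 and 399 in neurons, highest in progenitors and lowest in stem cells without overlap, 1.63 (SE 0.12, edgeR adjusted p = 3.95e-12) in mNPC. Thoc7 had 12, 11.4 and 13.3 CPM in stem cells, 50.7, 54.5 and 51.6 in progenitors and 22.8, 20.9 and 22.3 in neurons, in the same order of cell types as in cytoplasm, with 2.10 (SE 0.10) in mNPC. Nup93 fell to 48.5, 44.9 and 49.9 CPM in mNPC from 196, 248 and 212 in mESC but stood at 182, 181 and 188 in mCtx, just under the lowest stem cell library and 1.94 (SE 0.13, edgeR adjusted p = 7.52e-13) above mNPC, while its cytoplasmic level stayed low. In mCtx against mNPC 21 members were lower and 12 higher (39.2% and 30.2% of all genes), but the split was 11 and 14 with median-ratio size factors and 33 and 4 with total-count scaling, so no direction is given for the set.

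Within each cell type, chromatin was set against cytoplasm to see which members made up more of the chromatin RNA. In mESC 31 members were lower on chromatin and 8 higher, against 32.9% and 44.6% of all genes (median -0.84 over 45 members and 0.36 over all genes), and total-count scaling made this 26 and 14. Progenitors had 17 lower and 16 higher, against 32.5% and 37.0% (median -0.06 and 0.06). In mCtx 15 were lower and 24 higher, against 37.6% and 35.6% (median 0.34 and 0.00), and total-count scaling made this 19 and 14. Shares near the background, as in mNPC, say nothing particular about the members.

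By counts, some members kept 1 side in all 3 cell types. On the chromatin side were Thoc1, Thoc2, Xpo4, Xpo6 and Nup214, 5 genes or 10.6% of the members tested, against 22.9% of all genes. Of these, Thoc2 and Xpo4 also passed in all 3 cell types on rescaled TPM, where Thoc1 was on the cytoplasm side in mESC. Thoc2 had 226, 215 and 211 CPM on chromatin and 52, 68.9 and 71.7 in cytoplasm in mESC, 1.76 (SE 0.13), and its fold change was 2.91 (SE 0.14) in mNPC and 2.24 (SE 0.14) in mCtx. The fractions never overlapped, and Thoc2 is the longest member with a span of 125.7 kb. Xpo4 had 1.36, 1.88 and 2.09. On the cytoplasm side by counts were 13 genes, 27.7% of the members and 21.7% of all genes: Thoc3, Thoc6, Thoc7, Nxt1, Nxt2, Nup43, Nup50, Kpna1, Kpna2, Kpna6, Kpnb1, Tnpo2 and Xpot. By mean TPM as deposited, Kpna1, Kpna2, Kpna6, Kpnb1, Nup43 and Xpot were higher on chromatin in at least 1 cell type. The other genes named were not. Kpna2 in mESC had 98.0 TPM on chromatin and 46.5 in cytoplasm, so the side of these genes depends on the measure. Thoc6 had 9.22, 6.48 and 8.09 CPM on chromatin and 80.1, 57 and 68.4 in cytoplasm in mESC, -3.11 (SE 0.17), and Nxt1, the shortest member at 3.43 kb, -2.40 there, -2.89 in mNPC and -2.59 in mCtx. Transcripts for subunits of 1 complex thus lay on opposite sides, those of Thoc2 on chromatin and those of Thoc3, Thoc6 and Thoc7 in cytoplasm, by counts and by rescaled TPM.

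Gene length went with this order. Across the 47 members Spearman's rho between gene span and the log2 fold change of chromatin against cytoplasm was 0.61 in mESC, 0.53 in mNPC and 0.63 in mCtx. On rescaled TPM, which does not count introns as the span counts do, it was 0.33, 0.57 and 0.61 over 46 members. The points share the same libraries and are not independent, and spans ran from 3.43 to 125.7 kb with a median of 41.9 kb, against 16.8 kb for all protein-coding genes. No rho over all genes is given, so the relation is not shown to be particular to the members.

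Other members changed sides. Of the 31 lower on chromatin in mESC, 13 were higher on chromatin in mCtx: Nup37, Nup54, Nup85, Nup93, Nup133, Nup155, Nup160, Nup188, Nup205, Thoc5, Tnpo1, Xpo1 and Xpo5. These are 27.7% of the members tested, against 2.66% of all genes, and no member went the opposite way, against 5.74% of all genes. The sides depend on the scaling: with total-count scaling 3 members (Nup160, Nup205 and Tnpo1) were called on both sides in that order, against 0.378% of all genes, and 2 the opposite way, and with rescaled TPM it was 10 and 1. Nup93 was at 182, 181 and 188 CPM on chromatin and 38.8, 37.6 and 40.5 in cytoplasm of mCtx, 2.24 (SE 0.13, edgeR adjusted p = 3.29e-14), and at -0.59 (SE 0.13) in mESC. Xpo1 was at 565, 488 and 488 CPM on chromatin and 737, 902 and 885 in cytoplasm of mESC, and at 250, 297 and 335 and 171, 133 and 143 in mCtx. In each case the 2 fractions did not overlap, with chromatin below cytoplasm in stem cells and above it in neurons.

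**Figure D5:**
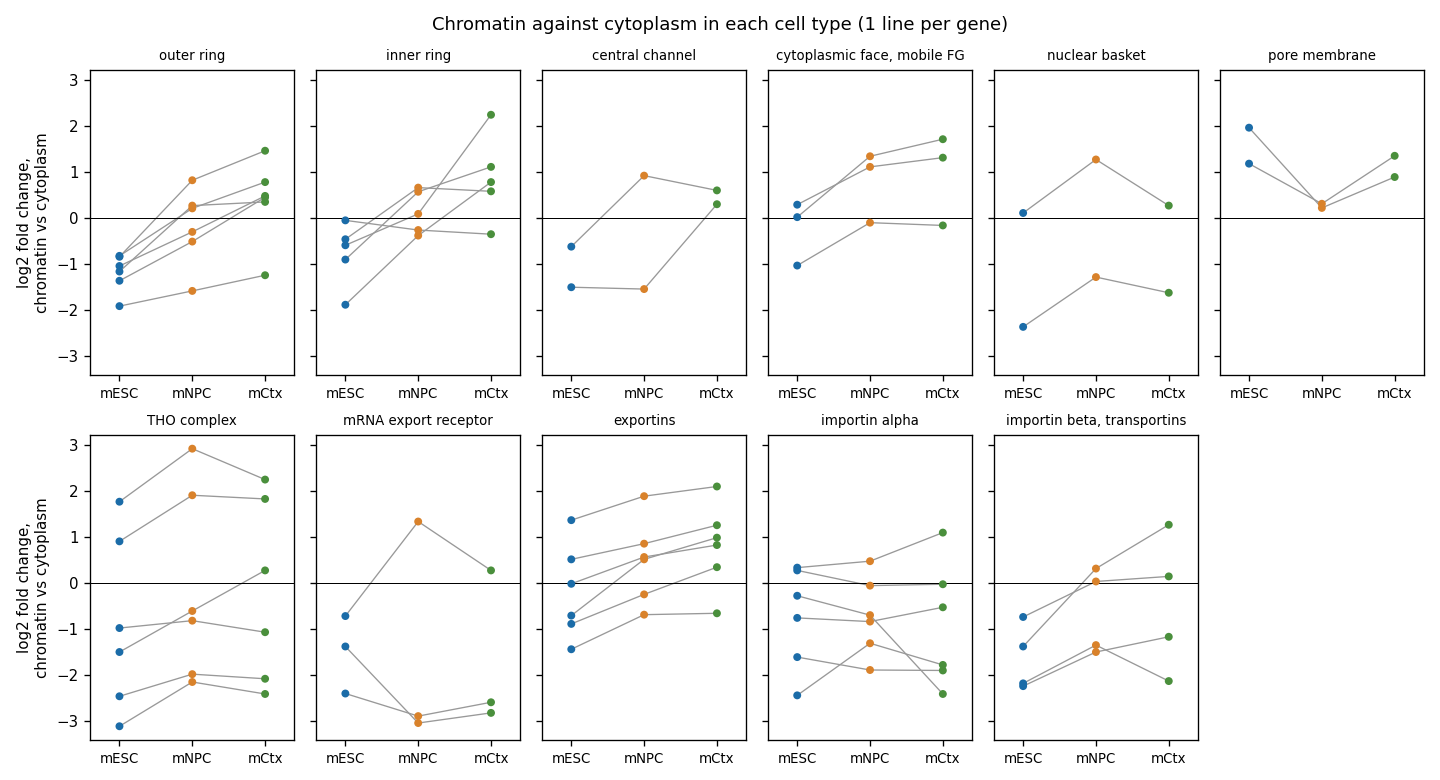
Log2 fold change of chromatin against cytoplasm (vertical axis, edgeR) in mESC, mNPC and mCtx for 45 members, 1 line per gene and 1 panel per role; values above 0 mean a larger share of chromatin RNA. Lines of the outer and inner ring mostly cross 0 upward from mESC to mCtx with trimmed-mean scaling, while total-count scaling lowers the mCtx values; the nuclear basket genes and Nup210 do not follow that course.

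The chromatin-to-cytoplasm ratio itself was tested between cell types as an interaction. Against mESC the ratio was higher in mNPC for 31 members and lower for 3, against 16.7% and 23.5% of all genes (median 0.78 over 45 members and -0.22 over all genes), and with total-count scaling 23 and 7. In mCtx it was higher for 31 and lower for 3, against 17.7% and 32.5% (median 0.85 and -0.42), but with total-count scaling 10 and 14. That scaling moved the median of all genes by -1.01 in this comparison, its largest shift, and median-ratio size factors moved it by 0.27. Rescaled TPM gave 34 higher and 5 lower in mNPC, against 21.8% and 23.3%, and 33 higher and 4 lower in mCtx, against 39.5% and 23.4%, and in each comparison 30 of the 31 higher members were the same.

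By counts, single scaffold and transport genes carried the largest differences in ratio. In mCtx against mESC these were Nup93 2.82 (SE 0.18), Nup188 2.66 (SE 0.17), Tnpo1 2.64 (SE 0.17), Nup160 2.30 (SE 0.15) and Nup205 2.01 (SE 0.18). In mNPC against mESC they were Nxf1 2.05 (SE 0.21), Tnpo1 1.69 (SE 0.17), Nup160 1.66 (SE 0.15), Nup54 1.54 (SE 0.17) and Nup188 1.5 (SE 0.17). The order depends on the measure: rescaled TPM gave 0.62 for Nxf1, the smallest of these 5, against 1.72 for Tnpo1, 1.64 for Nup160, 1.22 for Nup54 and 1.87 for Nup188. Nxf1, whose transcript is known to keep an intron in part of its copies, was at more counts on chromatin, 125, 135 and 144 CPM in mNPC against 71.2, 73.4 and 89.8 in mESC, without overlap, while its cytoplasmic counts were lower. The ratio was lower for Nup210, -1.74 (SE 0.21) in mNPC and -1.07 (SE 0.21) in mCtx, and for Nxt2 in mNPC, -1.66 (SE 0.33). In mCtx, Nxt2 had mean levels of 1.32 CPM on chromatin and 9.44 in cytoplasm, against 5.52 and 14.3 in mESC. Among importins alpha 1 of 6 was higher in mNPC and 2 higher and 1 lower in mCtx. These 6 include Kpna7, which was below 1 CPM in every library, so counting error is large for it. Between mCtx and mNPC the split was 14 and 5 (12.2% and 21.8% of all genes), 19 and 3 with median-ratio size factors and 1 and 23 with total-count scaling.

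In nucleoplasm against chromatin the set had no common direction. The split of higher and lower members was 18 and 11 in stem cells (30.0% and 36.3% of all genes), 16 and 23 in progenitors (32.5% and 33.5%) and 17 and 12 in neurons (30.6% and 26.5%). With total-count scaling it was 7 and 26, 7 and 24, and 21 and 8, and in mCtx 14 and 17 with median-ratio size factors. By counts, Nxt1, Nxt2, Thoc3, Thoc6, Thoc7, Nup50, Kpna2, Kpna6, Kpnb1, Tnpo2 and Xpot, which lay on the cytoplasm side of chromatin, were also higher in nucleoplasm than on chromatin in mESC and in mNPC. For Nxt1 the change was 1.36 and 1.83, and for Thoc6 1.5 and 1.60. By mean TPM as deposited, Kpna2, Kpna6, Kpnb1 and Tnpo2 did not keep this direction in both cell types, while the other genes named did. In mESC, Kpna2 had 34.2 TPM in nucleoplasm and 98.0 on chromatin. The comparisons of chromatin with cytoplasm and with nucleoplasm share the same chromatin libraries, so these results are not independent. No share over all genes is given for this pattern, so it is not shown to be particular to these members.

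Nup210 stood out in nucleoplasm. It was at 494, 678 and 578 CPM in mNPC nucleoplasm, 47.7, 47.2 and 53.4 on chromatin and 44.4, 38.4 and 44.5 in cytoplasm of the same cells, so every nucleoplasmic library was far above the chromatin and cytoplasm of these cells. The change of nucleoplasm against chromatin was 3.56 (SE 0.16, edgeR adjusted p = 2.72e-16), and 2.65 on rescaled TPM. In mESC nucleoplasm and chromatin overlapped, at 144, 152 and 108 and 89.5, 128 and 118 CPM, and in mCtx nucleoplasm was just above, at 116, 109 and 114 against 107, 101 and 92.1 CPM. Nup210 spans chr6:91013068-91116829 (mm10), 103762 bases.

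Genes of the same pathway that the naming rule does not hold were mostly lower in neural cytoplasm too. Of 49 listed, 46 were tested: 32 were lower and 6 higher in mNPC than in mESC (median -0.86), and 37 lower and 6 higher in mCtx than in mESC (median -1.16), against the backgrounds given above. All 8 genes of the Ran cycle were lower in mCtx and 7 in mNPC. The log2 fold change in mNPC was -3.04 for Ahctf1 (ELYS), which seeds pore assembly on chromatin, -2.71 for Ranbp2, the filament protein on the cytoplasmic face, and -2.01 for Tpr, the basket filament. In mCtx the largest falls were those of Rcc1, the exchange factor of Ran, -3.75 (SE 0.32), Rangrf -2.99 (SE 0.28) and Ahctf1 -2.80 (SE 0.14). Overlap with other genes is not given for this list, so part of these counts may be theirs. Higher were Tmem33, a membrane protein found at the pore and the endoplasmic reticulum, 3.15 (SE 0.13) in mNPC and 3.22 (SE 0.13) in mCtx, the TREX-2 subunits Sem1 1.64 (SE 0.13) and Eny2 1.32 (SE 0.15) in mNPC, and Alyref2 2.24 (SE 0.28) and the membrane nucleoporin Pom121 1.44 (SE 0.12) in mCtx.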

How the data were processed

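Read counts per gene were deposited by the authors as whole numbers for 37332 genes in 27 libraries. The chromatin columns of the deposited table carry the unit name expected count here, only because Chr in their headers also stands for chromosome; their values are whole numbers too. TPM were deposited by the authors for 53379 genes. Other deposited columns (start, end, length) place each gene on mm10, and the length equals the span of all 37332 genes, so counts were taken to cover introns too. STAR, featureCounts and kallisto are named in the submitters' processing notes; their versions and the strand setting are not given in the sources used here, and per the labels' protocols the kit was stranded and reads were 100 bp pairs. GENCODE vM21 matched 35533 gene IDs.

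All 27 libraries were fitted in edgeR 4.0.16 (R 4.3.3), with trimmed-mean scaling, the default low-count filter (18249 genes kept), 9 group means and 18 residual degrees of freedom; 15 contrasts were tested by quasi-likelihood with Benjamini-Hochberg adjustment at 0.05. Differences are log2 fold changes. Alternatives were other scalings, DESeq2 1.42.0, no filter, only the compared groups, limma 3.58.1 on log2(TPM + 1), log2(TPM + 0.1) and TPM rescaled by the median ratio (25256 genes at 1 TPM or more in 3 libraries), the replicate number as a block, and each library left out; leaving out the mESC libraries numbered 1, whose member levels were often lower, was added after seeing the data. Members and lists were chosen with earlier results of these data known. Values per library are given for the 5 largest changes in each direction at 5 CPM or more and for members fixed by role, while Nup35 and Nxf3 were chosen after their values were seen. Figures were drawn with matplotlib 3.10.9.

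Same-numbered libraries deviated together between all fractions of mESC (correlations 0.39 to 0.75) and between chromatin and cytoplasm of mNPC (0.16 to 0.31), so these were taken as paired from the data; elsewhere at least 1 correlation was below 0.1. No 2 libraries agreed within counting noise. Beyond the label, nothing says that replicates came from separate cultures, so p-values measure the spread between these libraries.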

Additional observations from a re-analysis of the deposited data

Results flagged for a closer look

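Several members had a chromatin-to-cytoplasm ratio that differed between cell types by the interaction test, and each is given as its difference in log2 ratio with trimmed-mean scaling; edgeR adjusted p-values passed 0.05 in all of them, and no explanation was tested. In mCtx against mESC the ratio was higher by 2.82 for Nup93, 2.66 for Nup188, 2.64 for Tnpo1, 2.30 for Nup160 and 2.01 for Nup205, and it differed by -1.07 for Nup210. In mNPC against mESC it was higher by 2.05 for Nxf1 (0.62 on rescaled TPM), 1.69 for Tnpo1, 1.66 for Nup160, 1.54 for Nup54 and 1.5 for Nup188, and it differed by -1.74 for Nup210 and -1.66 for Nxt2.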

How the results depend on the processing

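The fall in cytoplasm against mESC held for 40 to 44 members in every setting run, of 47 tested on counts with the filter and 46 on filtered TPM. Without the low-count filter, with only the compared groups, or without the mESC libraries numbered 1 (added after seeing the data), no count of members moved by over 1.5 times. The replicate block moved none either: it gave 42 members lower in cytoplasm in both comparisons with mESC and 9 higher and 31 lower for chromatin against cytoplasm in mESC, and where numbers pair the libraries it changed no other call count by that much. Total-count scaling gave, for chromatin against cytoplasm, 14 higher in mESC and 14 in mCtx; for nucleoplasm against chromatin, 7 higher and 26 lower in mESC and 7 higher in mNPC; on chromatin, 4 higher and 33 lower in mCtx against mNPC and 0 higher in mCtx against mESC; for the ratio, 7 lower in mNPC against mESC, 1 higher and 23 lower in mCtx against mNPC, and 10 higher and 14 lower in mCtx against mESC. Median-ratio size factors and DESeq2 each gave 11 lower on chromatin in mCtx against mNPC and 3 lower for that ratio. Rescaled TPM gave 15 lower in nucleoplasm against chromatin of mNPC, 3 higher in cytoplasm of mCtx against mNPC, and for the ratio 5 lower in mNPC against mESC and 2 lower in mCtx against mNPC.

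On TPM as deposited, with pseudocount 0.1 and with no filter, in that order, chromatin against cytoplasm in mCtx had 2, 3 and 2 lower; nucleoplasm against chromatin had 8, 7 and 8 higher and, in the first, 17 lower for mESC, 4, 4 and 4 higher for mNPC, and 11, 10 and 10 higher for mCtx. In cytoplasm, 2, 2 and 2 were higher in mNPC against mESC, 3, 4 and 2 higher and 8, 8 and 8 lower in mCtx against mNPC, and 0, 0 and 0 higher in mCtx against mESC. On chromatin, 2, 2 and 2 were higher in mNPC against mESC, 35, 36 and 35 higher and 1, 1 and 1 lower in mCtx against mNPC, and pseudocount 0.1 and no filter left 23 and 24 lower in mCtx against mESC. For the ratio, 6, 6 and 6 were lower in mNPC against mESC, with 19 higher at pseudocount 0.1, and 34, 31 and 32 higher and 0, 0 and 0 lower in mCtx against mNPC. The cause of these moves was not tested.

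Among the single-gene fold changes printed and rerun, directions reversed for 4 genes in mNPC against mESC cytoplasm on TPM: Kpna2 at 0.40, 0.41 and 0.40 on the 3 settings and 1.14 rescaled, Kpna4 at -2.04, -2.26, -2.04 and -1.41, Nup210 at -0.52, -0.70 and -0.52, and Nxf1 at 0.21 rescaled. On TPM as deposited, 2 fold changes that had not passed by counts passed, and 8 lost their call. On rescaled TPM it was 2 and 2. Leaving out 1 library at a time moved 1 count by over 1.5 times: members higher in cytoplasm of mCtx against mNPC, 7 with all libraries, ranged from 3 to 6. Of the single genes printed, the calls of Nup153 and Xpo7 in that comparison were lost without 1 and 3 single libraries (log2 0.38 to 0.53 and 0.21 to 0.33). Depth limits only the rarest members: Kpna7, Nxf2, Nxf3 and Nxf7 had few counts, and counting error there is large.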
